A study of Mus musculus with 6 samples.

Results

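GABA-A receptor subunits were followed in the deep cerebellar nuclei of mice after eyeblink conditioning with paired or with unpaired stimuli, to ask which of them differed in level between the training groups. The subunits are 7 genes, Gabra2, Gabra3, Gabra4, Gabra5, Gabra6, Gabrb2 and Gabrd, and their members here were all array probe sets whose platform annotation names only that gene. There were 16 such probe sets, of 36701 in all without controls: 6 on array design A, 3 on design B and 7 on design C. Male C57BL/6 mice aged 11 to 18 weeks carried wires in the left eyelid and, after 3 days of recovery, underwent 7 days of training that combined a 352-ms tone with a 100-ms periorbital shock. Paired mice received the shock 252 ms after tone onset, with a common end; unpaired mice received the stimuli apart, in pseudorandom order. Each group was a pool of 10 to 15 nuclei, cut with syringe needles around the anterior interpositus nucleus on the side of the wired eye, and each pool was read on 1 array of each design. There was therefore no replicate of either pool on any design, no difference below has a p-value, and the number of arrays limits the precision.

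GABA-A receptors are ligand-gated chloride channels built as pentamers of alpha, beta and gamma or delta subunits. In the cerebellum they carry the inhibition that Purkinje cell axons exert on deep nuclear neurons and the inhibition that Golgi cells exert on granule cells. The alpha subunit sets location and drug sensitivity: receptors with alpha1, alpha2 or alpha3 and a gamma subunit lie mostly at synapses, whereas alpha6 with delta in granule cells, and alpha4 with delta in forebrain neurons, form extrasynaptic receptors that respond to ambient GABA.

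Signals are the authors' log2 values, and the percentile of a probe set is its rank among the non-control probe sets of the same array. Brightness depends on the probe as well as on the transcript, so levels were not compared between probe sets or designs. A log2 ratio is the signal in the paired pool minus that in the unpaired pool after each design was centred, which moved ratios by 0.010, 0.008 and 0.007 on designs A, B and C. Probe sets with a mean signal at or above their design's median were kept, and signals under the 25th percentile were set to that floor. Of the 16 member probe sets, 9 were kept, covering 5 of the 7 genes; 3 lay under the median, 1 was at the floor in the unpaired pool only, and 3 were at the floor in both pools. Across probe sets, Pearson's r between the pools was 0.995, 0.991 and 0.994, and the log2 ratios of kept probe sets had an SD of 0.191, 0.202 and 0.190 on designs A, B and C.

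The deposited signals of all 16 probe sets are plotted by design. The lines between the pools differ in slope, and the steepest among kept probe sets are those of Gabra6. The median absolute log2 ratio of the kept members was 0.263. The line of Gabra3, whose probe set was not kept, is also steep, with 3.66 in the paired and 2.90 in the unpaired pool.

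**Figure D1:**
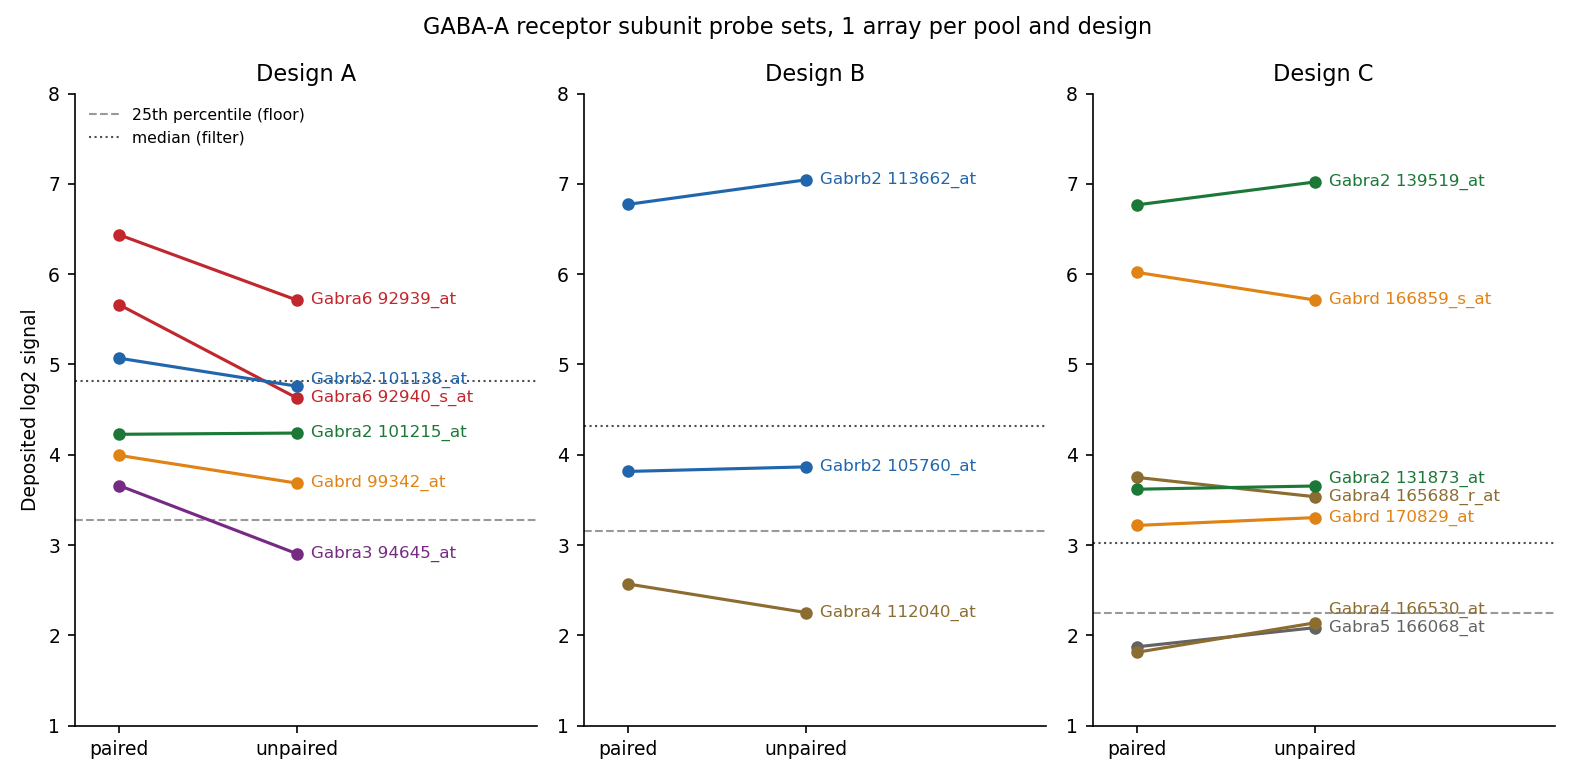
Deposited log2 signal (vertical axes, not comparable between designs) of each subunit probe set in the paired pool (left) and the unpaired pool (right), with the design's 25th percentile (dashed) and median (dotted). Each point is 1 array; both Gabra6 probe sets on design A, at 6.44 and 5.66 in the paired pool, are above their values in the unpaired pool.

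Gabra6 encodes alpha6, the subunit characteristic of granule cells of the cerebellum, and each of its probe sets (both on design A) read higher in the paired pool. Probe set 92939_at had a log2 signal of 6.44 in the paired pool and 5.71 in the unpaired pool, which placed it at the percentile 75.5 of the paired array and 64.3 of the unpaired array. Its log2 ratio was 0.73, or 1.66-fold. Probe set 92940_s_at had 5.66 in the paired pool and 4.63 in the unpaired pool, at percentiles 63.4 and 47.0, with a log2 ratio of 1.04, or 2.06-fold. Its signal lay under the median of design A in the unpaired pool and passed the filter through the mean of both pools. The letter s in its name marks probes that may also read related transcripts.

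Among the 6211 kept probe sets of design A these log2 ratios held ranks 5 and 1 from the top; without 92940_s_at, 92939_at held rank 4 of 6210. The central 95% of that design's kept probe sets lay between -0.40 and 0.38, and both Gabra6 values were outside it. These were the members past 1.5-fold higher in the paired pool, 2 of the 9 kept, and 0 of the 9 were past 1.5-fold lower. Over all kept probe sets of the 3 designs, 0.349% were past 1.5-fold higher and 0.332% past 1.5-fold lower, and on design A alone 0.242% and 0.338%. Since 92940_s_at was kept through its paired signal, its place is partly set by the filter: without it, 1 of 8 kept members was past 1.5-fold higher. With the filter on the unpaired signal alone, 1 of 7 was, against 0.289% of all probe sets so kept. With the bound lowered to a log2 ratio of 0.322, the members counted were again 2 higher and 0 lower, against 4.68% and 5.07% of all kept probe sets. Kept members that came closest without passing it were a probe set of Gabrb2 at 0.320 and one of Gabrd at 0.312.

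The mean log2 ratio of Gabra6 over its probe sets was 0.89, the highest of 10579 genes with a kept probe set. That rank rests on 92940_s_at: on 92939_at alone Gabra6 was at rank 7, under 6 genes of 1 kept probe set each with 0.74 to 0.78. Among the 3437 genes with 2 or more kept probe sets, 8 had every kept probe set past that bound and higher in the paired pool, and 6 had every one past it and lower. Gabra6 counts among the 3437 only with 92940_s_at, which was kept through its paired signal. Beside Gabra6, the higher ones were Adcy1, an adenylate cyclase, Ppp1r17, a phosphatase inhibitor of Purkinje cells, and Napg, Plekha2, Prrc2c, Slc25a46 and Slc35e2. The lower ones were Actb, Marchf11, Ptdss1, Qk, Rorb and Sting1. Nearest genes were sought here and below among genes with 2 or more kept probe sets, and by mean log2 ratio those nearest to Gabra6 were Prkcd, a protein kinase C, with 0.52 over 3 probe sets, and Megf11 with 0.50 over 2. Nearness here rests on a single difference between pools, and for Gabra6 also on 92940_s_at.

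**Figure D2:**
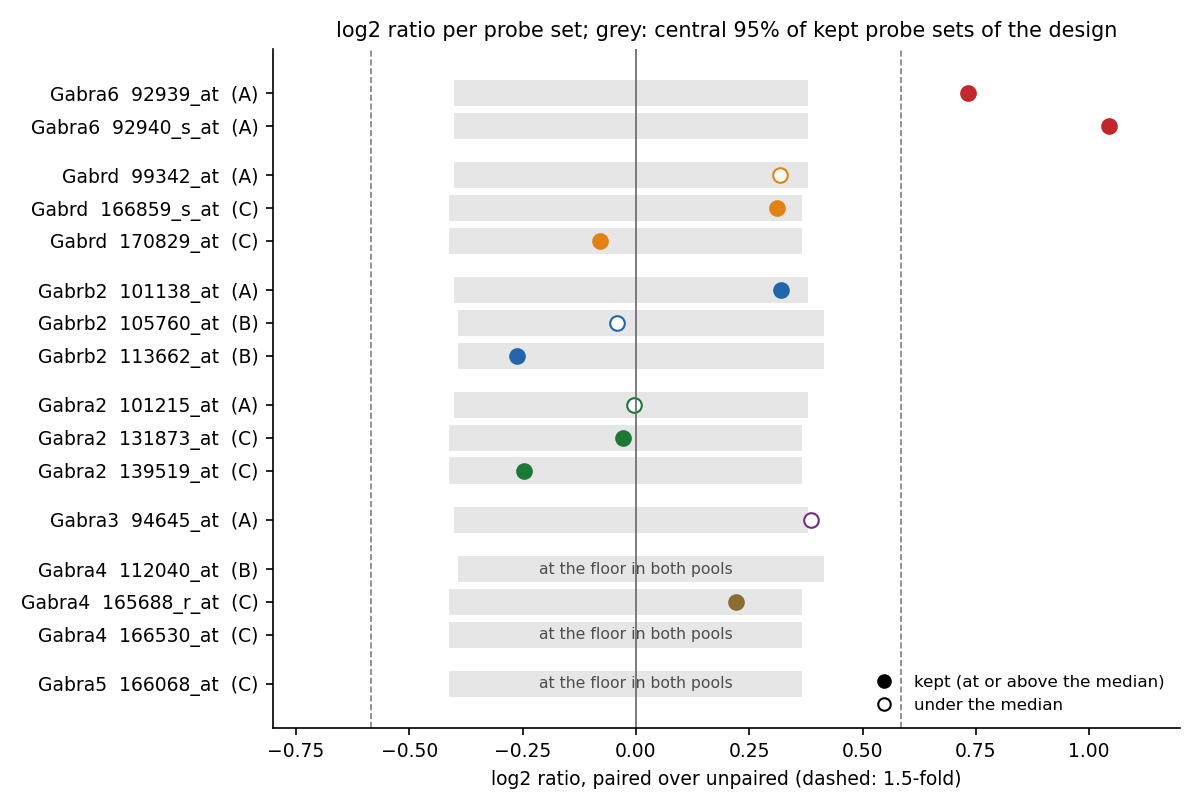
log2 ratio of each subunit probe set, paired over unpaired, with the array design in brackets; filled points had a mean signal at or above the design's median, open points lay under it, and grey bars span the central 95% of kept probe sets of the design. The Gabra6 points at 0.73 and 1.04 lie to the right of the dashed 1.5-fold line, and the other kept points lie inside the grey bars.

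The chromosomal neighbours of Gabra6 and the region before its start are shown because a protein-coding neighbour on chromosome 11 is Gabrb2, another of the subunits, whose probe sets gave different values. RefSeq windows of 250 bases before the annotated start (GRCm38.p6) were found for 6 of the 7 genes, all but Gabrd. Nuclear factor I (NFI) proteins, which are known to regulate Gabra6 in granule neurons, bind a core of TTGGC. The TATA box of core promoters is TATAAA. Capitals mark matches to these letters on either strand, and no base belongs to both motifs. The Gabra6 window is chr11:42321073-42321322 on the minus strand, with 40.8% G and C, and the Gabrb2 window is chr11:42420190-42420439 on the plus strand, with 58.8%, the most upstream of the annotated Gabrb2 starts.
Gabra6: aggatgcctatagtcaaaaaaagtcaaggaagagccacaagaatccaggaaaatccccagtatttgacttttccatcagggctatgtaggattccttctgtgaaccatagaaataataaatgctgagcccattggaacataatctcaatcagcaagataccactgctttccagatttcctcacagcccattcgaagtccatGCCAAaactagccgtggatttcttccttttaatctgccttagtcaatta
Gabrb2: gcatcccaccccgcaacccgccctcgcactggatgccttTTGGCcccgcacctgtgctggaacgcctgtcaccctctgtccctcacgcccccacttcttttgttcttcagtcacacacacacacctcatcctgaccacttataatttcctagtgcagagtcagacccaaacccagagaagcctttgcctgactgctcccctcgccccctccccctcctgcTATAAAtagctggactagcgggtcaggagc
In Gabra6 the NFI core stands 49 to 45 bases before the start. In Gabrb2 it stands 211 to 207 bases before the start and a TATA box stands 30 to 25 bases before it. Of 32851 RefSeq windows of the same length, 41.5% held the NFI core and 12.4% TATAAA; of the 9 windows of the subunit genes, 4 held the core and 3 TATAAA. The windows with TATAAA belong to 2 genes, since the Gabra3 windows overlap and share 1 site. The matches describe letters and not binding.

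Gabrb2, the beta2 subunit, which pairs with alpha1 in the most common receptor of the brain, did not give a single direction. Probe set 113662_at on design B, the brightest of its 3, had a log2 signal of 6.77 in the paired pool and 7.04 in the unpaired pool, a log2 ratio of -0.26. Probe set 101138_at on design A had 5.07 in the paired pool and 4.76 in the unpaired pool, a log2 ratio of 0.32, and it too lay under its design's median in the unpaired pool alone. The third, 105760_at on design B, was under the median in both pools, with 3.82 in the paired and 3.87 in the unpaired pool and a log2 ratio of -0.04. The mean over the kept probe sets was 0.03, and each value lay inside the central 95% of its design. Genes with the nearest mean were Exoc2, of the exocyst, with 0.03 and Rmdn2 with 0.03.

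Gabrd encodes the delta subunit, the partner of alpha6 in extrasynaptic receptors of granule cells. Probe set 166859_s_at on design C had a log2 signal of 6.02 in the paired pool and 5.71 in the unpaired pool, a log2 ratio of 0.31 and rank 272 from the top of 5934 kept probe sets. Probe set 99342_at on design A lay under the median, with 3.99 in the paired pool and 3.69 in the unpaired pool, and gave a log2 ratio of 0.32. Against these, 170829_at on design C had 3.22 in the paired pool and 3.30 in the unpaired pool, a log2 ratio of -0.08. Of its 3 probe sets, higher values in the paired pool were thus found on 1 of the 2 kept ones and on the dim one. The kept pair averaged 0.12, and the nearest genes by this mean were Mfsd12 and 4930544D05Rik, each at 0.12. All 3 Gabrd ratios lay inside the central 95% of kept probe sets of their designs.

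Gabra2, the alpha2 subunit of synaptic receptors, stood at or a little under 0 on all 3 probe sets. Probe set 139519_at on design C was at percentile 94.4 of the paired array and 95.5 of the unpaired array, with log2 signals of 6.77 and 7.02 in these pools and a log2 ratio of -0.25. Probe set 131873_at on the same design had 3.62 in the paired pool and 3.65 in the unpaired pool, a log2 ratio of -0.03. On design A, 101215_at, under the median, had 4.23 in the paired pool and 4.24 in the unpaired pool, a log2 ratio of -0.0034. The mean of the kept probe sets was -0.14, and Tomm70a and Ciao2a were the genes with the nearest means, at -0.14 each.

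Gabra4, the alpha4 subunit, was kept on 1 probe set of 3. That one, 165688_r_at on design C, had a log2 signal of 3.75 in the paired pool and 3.54 in the unpaired pool, a log2 ratio of 0.22, and its letter r marks a relaxed probe choice. The others were at the floor in both pools: 112040_at on design B with 2.57 in the paired and 2.25 in the unpaired pool, and 166530_at on design C with 1.81 in the paired and 2.14 in the unpaired pool. Below the floor the order of values was not read, and the 3 probe sets give no common level for this gene.

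Gabra3, the alpha3 subunit of synaptic receptors, had 1 probe set, 94645_at on design A. Its log2 signal was 3.66 in the paired pool, at percentile 30.9, and 2.90 in the unpaired pool, at percentile 18.1 and so under the floor of 3.28. Against that floor the log2 ratio was 0.39, and the probe set lay under the median of its design in both pools. Among probe sets of design A between the 25th and 50th percentile of mean signal, log2 ratios had an SD of 0.207. Gabra5, the alpha5 subunit known from extrasynaptic receptors of the hippocampus, had 1 probe set, 166068_at on design C, with 1.87 in the paired pool and 2.08 in the unpaired pool, under the floor in both. It gives no ratio.

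Among all members with a ratio the directions were mixed. Of the 9 kept probe sets, 5 were higher and 4 lower in the paired pool, a split that the centring brings near even over all kept probe sets. Among the higher ones, the suffixed Gabra6 probe set and the design A probe set of Gabrb2 were kept through their paired signal. The split is therefore partly set by the filter. With the filter on the unpaired signal alone, 7 members were kept, without these probe sets. Of the 4 genes with 2 kept probe sets, Gabra6 and Gabra2 had them in the same direction and Gabrb2 and Gabrd did not. For Gabra6 and Gabrb2 this comparison, and the distance below, rest on the probe sets kept through their paired signal. Among all 2403 genes with exactly 2 kept probe sets, 50.7% had them in the same direction. The distance between the kept probe sets was 0.31 for Gabra6, 0.58 for Gabrb2, 0.39 for Gabrd and 0.22 for Gabra2, against a median of 0.18 over those genes.

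Other GABA-A receptor subunits with a probe set were Gabrb1, Gabrg1, Gabrg3, Gabrp, Gabrr1 and Gabrr2, 6 of 12 listed, with 10 probe sets. The remaining listed subunits were not analysed here. Gabrb1, the beta1 subunit, had a log2 signal of 7.16 in the paired pool and 7.11 in the unpaired pool on 92749_at of design A, a log2 ratio of 0.06, and 4.67 and 4.68 in these pools on 112172_at of design B, a log2 ratio of -0.0011. Gabrp, the pi subunit, had 4.47 in the paired pool and 4.40 in the unpaired pool on design B, a log2 ratio of 0.07, and Gabrg1, the gamma1 subunit, had 4.50 and 4.33 in these pools under the median of design A, a log2 ratio of 0.18. The Gabrr1 and Gabrr2 probe sets and 1 of the 2 for Gabrg3 were at the floor in both pools. The other Gabrg3 probe set and the third of Gabrb1 were at the floor in the paired pool alone, with log2 ratios of -0.02 and -0.15 against the floor. The ratios of these subunits lay between -0.15 and 0.18.

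Proteins that hold GABA-A receptors at the membrane or move them there had no common direction. Of 24 listed scaffold, assembly and trafficking genes 20 were measured, 11 higher and 9 lower in the paired pool, with a median log2 ratio of 0.01. Over all 10579 genes 49.0% were higher, with a median of -0.0039. Rdx, which encodes radixin, an anchor of alpha5 receptors, had a log2 ratio of -0.50 on 1 probe set, and Gabarap, a receptor-binding trafficking protein, had -0.26. Gphn, which encodes the synaptic scaffold gephyrin, had -0.25 and -0.12 on its 2 probe sets.

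Genes of GABA synthesis, transport, chloride balance and GABA-B receptors were measured for 10 of 12, with 4 higher, 6 lower and a median of -0.07. Slc12a2, the chloride importer NKCC1, had the log2 ratio farthest from 0, -0.54 on 1 probe set. Of the GABA-synthesising enzymes, Gad2 had 0.44 and Gad1 had -0.41. No gene of these pathway lists was past 1.5-fold in either direction.

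**Figure D3:**
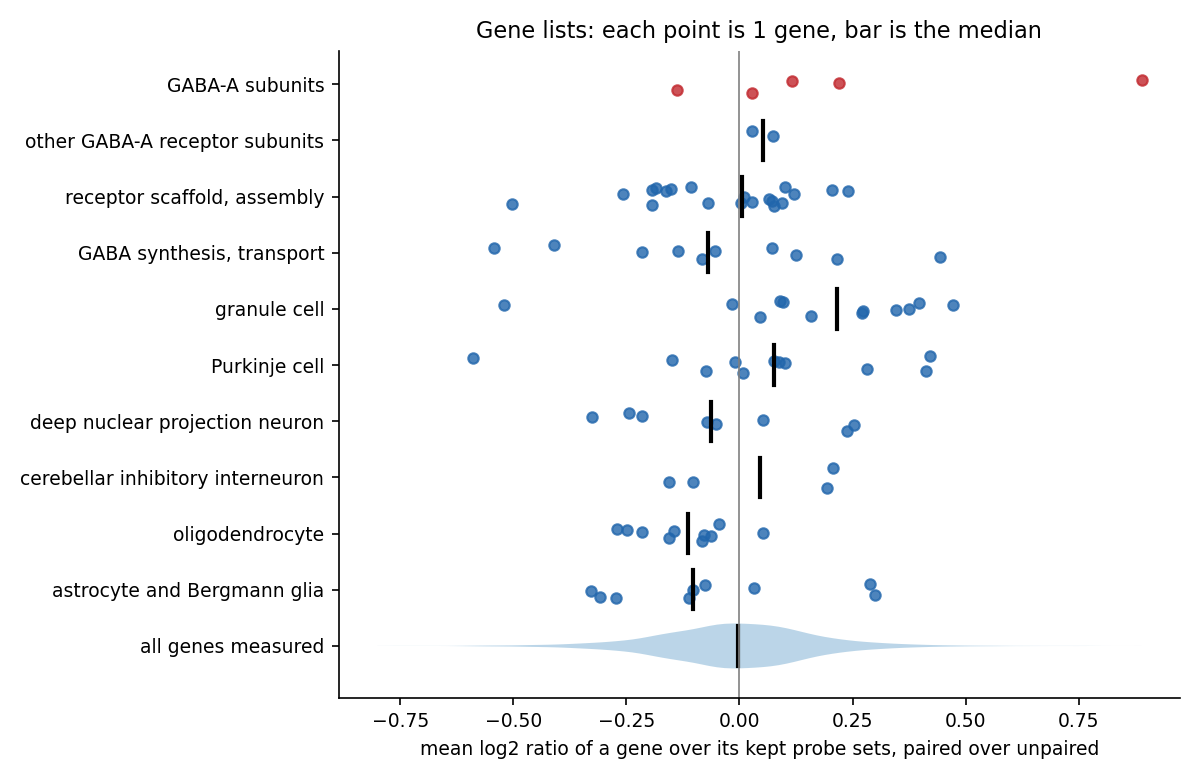
Mean log2 ratio per gene, paired over unpaired, for the 5 subunit genes with a kept probe set (top row), the pathway and marker lists (points are genes, bars are medians) and all 10579 genes (shaded density with its median). The Gabra6 point at 0.89 lies to the right of every point of the other lists, and the granule cell median is 0.22.

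The tissue held markers of the nuclei and of the cerebellar cortex alike. Of 12 markers of deep nuclear projection neurons 8 were measured. Nefh, a neurofilament gene, was at percentile 97.4 of the paired and 97.8 of the unpaired array of design A. Slc17a6, their vesicular glutamate transporter, was at 99.9 in both pools on its brightest probe set, the suffixed 138417_f_at of design C. Its unsuffixed probe sets were at 81.1 in the paired and 81.9 in the unpaired pool on design C, and at 90.3 and 79.3 in these pools on design B. Lhx9 and Tbr1, transcription factors of subsets of nuclear neurons, were at the floor in both pools. The Purkinje cell marker Pcp2 was at percentile 97.7 of the paired and 97.5 of the unpaired array of design A on its brightest probe set, the suffixed 102376_r_at. Its unsuffixed 162452_at was at 72.7 of the paired and 73.8 of the unpaired array of that design. Other Purkinje cell markers differed widely in percentile: Gng13 was at 98.8 in both pools on design C. Calb1 was at 64.0 of the paired and 62.9 of the unpaired array of design A on its brightest probe set. Pcp4 was at the floor in both pools. In pooled tissue, more cells of a type and more RNA per cell cannot be told apart.

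Markers of granule cells, the cells in which alpha6 and delta are typically found, were also mostly higher in the paired pool. Of 18 listed markers, chosen without Gabra6 and Gabrd, 12 were measured, 10 of them higher and 2 lower, with a median log2 ratio of 0.22. Fat2, a cadherin of granule cell axons, had 0.47 and Kcnd2, a potassium channel subunit, had -0.52, the values farthest from 0. The Kcnd2 value is that of the suffixed 99339_r_at of design A alone. Its unsuffixed 98364_at, under the median of that design, gave -0.09, and its remaining probe set was at the floor in both pools. The kept probe sets of the 12 measured markers had a summed linear signal of 1166 in the paired and 1075 in the unpaired pool on design A. The sums were 1130 in the paired and 951 in the unpaired pool on design B. On design C they were 271 in the paired and 224 in the unpaired pool. No listed granule marker on the arrays was at the floor in both pools on all its probe sets. On design A, which carries both Gabra6 probe sets, the list's median was 0.05 over the genes it holds, with 5 of 7 kept probe sets higher. Of the 7 granule marker probe sets under the median but above the floor in both pools, all on that design, 1 was higher and 6 lower. The higher one was that of Neurod1 at 0.60, or 1.51-fold, and the lower ones lay between -0.12 and -0.02. Cbln3 on design C was under the median too, at the floor in the unpaired pool alone, with 0.46 against that floor. By gene mean, Gabra6 at 0.89 was above each of the 12 measured markers. That mean includes 92940_s_at, which was kept through its paired signal. On 92939_at alone Gabra6 was at 0.73, also above each marker mean. Single marker probe sets came closer: the 4 kept ones of Chn2, with a mean of 0.16, ranged from -0.45 to 0.67. The part of granule cell content in the Gabra6 and Gabrd values was not tested.

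On design A alone, medians of other cell types were 0.08 for Purkinje cell, -0.18 for projection neuron, 0.04 for inhibitory interneuron, -0.07 for oligodendrocyte and -0.11 for astrocyte and Bergmann glia markers. The values that follow are over all designs. Purkinje cell markers were higher for 7 of the 11 measured, with a median log2 ratio of 0.08, with Kitl at -0.59 and Car8, a carbonic anhydrase-related protein gene, at 0.42. Projection neuron markers had 3 of 8 higher and a median of -0.06, with Irx3 at -0.33 and Slc17a6 at 0.25. The Slc17a6 mean rests on 108915_at of design B, with a log2 signal of 6.76 in the paired pool and 5.92 in the unpaired pool and a log2 ratio of 0.85; its other probe sets, on design C, had -0.08 and -0.0025. Inhibitory interneuron markers had 2 of 4 higher and a median of 0.05, with Sst at 0.21 and Nxph1 at 0.19. Oligodendrocyte markers had 1 of 10 higher and a median of -0.11, with Sox10 at -0.27 and Gsn at -0.25. Astrocyte and Bergmann glia markers had 3 of 9 higher and a median of -0.10, with S100b at -0.33 and Fabp7 at -0.31.

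How much each subunit's value rested on the choice of probe sets was asked last. Gabra6 was past 1.5-fold under each of the 11 alternatives that gave it a value, with mean log2 ratios of 0.73 to 0.89, while a filter at the 75th percentile of signal removed both of its probe sets; the lowest was that of 92939_at alone, reached wherever 92940_s_at was left out. Gabra2 was under 0 in each of its 11, between -0.25 and -0.09, and Gabra4 lay between 0.21 and 0.22 on its single kept probe set. Gabrb2 ranged from -0.26 to 0.32 and Gabrd from -0.08 to 0.31, so that neither had a direction that held over its probe sets.

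**Figure D4:**
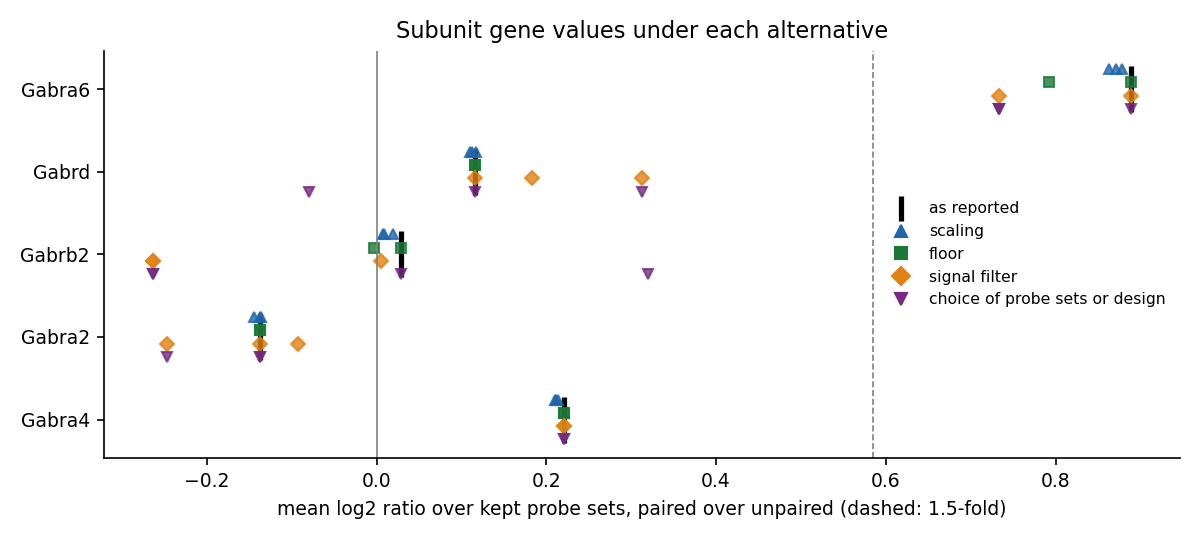
Mean log2 ratio of each subunit gene over its kept probe sets, paired over unpaired, as reported (black bar) and under the alternatives of scaling, floor, signal filter and choice of probe sets or design (coloured symbols). Gabra6 stays right of the dashed 1.5-fold line at 0.73 or more, and Gabrb2 and Gabrd have values on both sides of 0.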

How the data were processed

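Total RNA of 1 pool of nuclei per training group was labelled with biotin, per the labels' protocols, and measured on arrays of 1 colour. The letters A, B and C at the end of the labels were read as array designs, since each design has its own probe sets. Each deposited value is a log2 signal. Its base is an inference from the span of 1.40 to 12.53, and how the authors corrected background and normalized is not given in the sources used here.

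Of 36701 probe sets left without 198 controls, 29131 name 1 gene on the platform, 29044 of them matched to RefSeq (GRCm38.p6) by gene ID, and 724 that name several genes were left out of gene values. A constant was added to each paired array to bring the median log2 ratio of the brighter 50% of probe sets to 0. Signals under the 25th percentile were floored, and 18351 probe sets were kept. A gene's value was the mean over its kept probe sets. Calls are by size (1.5-fold), without tests. Python 3.11.15, numpy 2.4.6, pandas 2.3.3 and statsmodels 0.14.6 (loess) were used. The steps were tested on simulated data.

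The text names all members, every measured gene of the other subunits, from each other list the 2 genes farthest from 0, and the 2 genes nearest to each member with 2 or more kept probe sets. The genes that passed 1.25-fold on all probe sets, and Gphn, Nefh, Pcp2, Pcp4, Calb1, Gng13, Lhx9, Tbr1, Gad1, Cbln3, Chn2, Neurod1 and Rora, were named after their values were seen. The members and lists were chosen with earlier results of these data known. Which transcript a probe set reads rests on the annotation; probe sequences were not used here.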

Additional observations from a re-analysis of the deposited data

How the results depend on the processing

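Results were recomputed with other scalings (none, quantile, or loess with a span of 0.3), other floors (none, or the median), other filters (none, or the 75th percentile), other choices of probe sets (the brightest of a gene, unsuffixed ones, those of a single design, or, for lists, also those naming several genes) and other size thresholds. A filter on the unpaired signal alone and the omission of Gabra6 92940_s_at were added after seeing the data. The scalings moved the median of all kept probe sets by 0.010 or less. The 9 kept member probe sets kept their sign in all 45 comparisons and moved by less than the SD of all kept probe sets, 0.19, in each; the log2 ratio of Gabra6 92940_s_at was 0.85 with the floor at the median. The count of member probe sets past 1.5-fold higher was 2, but 1 at a 2-fold threshold, 1 with the filter on the unpaired signal, 1 without 92940_s_at and 0 with the filter at the 75th percentile, which removes both Gabra6 probe sets. Among gene values, Gabrb2 was -0.26 at or above the 75th percentile, with the filter on the unpaired signal, with the brightest probe set and on design B alone, and 0.32 on design A alone, each being a single probe set. Gabrd was 0.31 at or above the 75th percentile and with the brightest probe set, and -0.080 without suffixed probe sets, again 1 probe set each. On design B alone the median was 0.15 over 4 genes of GABA synthesis and transport and 0.10 over 5 astrocyte and Bergmann glia markers. The cause of these shifts was not tested. The Purkinje cell value on design B, -0.14, is that of 1 kept probe set of 1 gene, Rora. The sign turned in 6 of 54 gene comparisons, in none for Gabra6, Gabra2 or Gabra4, and in 11 of 124 list comparisons. Several list medians kept their sign throughout. The granule cell median lay between 0.05 and 0.35, and that of oligodendrocytes between -0.17 and -0.02. The inhibitory interneuron median lay between 0.01 and 0.20, and that of the other GABA-A receptor subunits between 0.0003 and 0.07. The Gabra3 and Gabra5 probe sets were not kept and have no such comparison. No paired analysis was possible because each pool has 1 array per design. With 1 array per pool, dim probe sets are limited by the unknown background of the authors' values.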
